A study of Arabidopsis thaliana with 12 samples.

Results

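The 10 14-3-3 protein genes GRF1 to GRF10 of Arabidopsis thaliana (chi, omega, psi, phi, upsilon, lambda, nu, kappa, mu and epsilon) were followed across 4 genotypes in 12 shoot RNA-seq libraries. They were taken by locus, all 10 were present among the 25089 loci of the libraries, and all 10 passed the filter on low values that left 18502 genes for testing. In the dominant-negative mutant sob3-6 all 10 had more transcript than in the wild type Col-0, by 1.18- to 1.38-fold. In the overexpressor SOB3-D and in the triple mutant pif4 pif5 pif7 none of the 10 was called different from Col-0. A related gene outside the set, GRF11 omicron, was higher in SOB3-D and in sob3-6 than in Col-0, with its highest level in SOB3-D, while its lower level in pif4 pif5 pif7 passed the threshold in some settings and not in others.

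The libraries were made from the part of the plant above a cut through the hypocotyl, 14 days old and collected at ZT4, that is 4 h after lights on, with 3 libraries for each genotype. All were grown on medium without sucrose at 22 °C, in days of 16 h of white fluorescent light at about 35 to 55 μmol per square metre per second and nights of 8 h. The genotypes were sob3-6, which carries a dominant-negative allele of the AT-hook protein gene SOB3 (AHL29), SOB3-D, which overexpresses SOB3, pif4-101 pif5(pil6-1) pif7-1, called pif4 pif5 pif7, which carries mutations in 3 genes for phytochrome-interacting factors, and Col-0, with all plants in the Columbia (Col-0) ecotype. AHL proteins bind AT-rich DNA and restrain growth of petioles and hypocotyls, and PIF proteins are transcription factors that promote that growth. The comparisons asked which genes depend on AHL and PIF function in young rosettes. Whether the 3 libraries of a genotype came from separate plantings is not stated in the labels, so a p-value here reflects variation among these libraries, which may be technical.

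14-3-3 proteins are dimeric adaptors that bind phosphorylated serine or threonine sites in other proteins and so change their activity, location or stability. In plants they activate the plasma membrane H+-ATPase, inhibit nitrate reductase, hold the brassinosteroid factors BZR1 and BES1 in the cytoplasm, and bind phototropins and florigen proteins. The Arabidopsis genes are also called GRF, for general regulatory factor, a name that growth-regulating factors share without being related. Of the 10 genes, chi, omega, psi, phi, upsilon, lambda, nu and kappa belong to the non-epsilon branch of the family, while mu, epsilon and omicron belong to the epsilon branch.

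The genes are spread over all 5 chromosomes. Those with the largest changes below are GRF6 lambda (AT5G10450, chr5:3283853-3286537, minus strand) and GRF9 mu (AT2G42590, chr2:17731830-17733982, minus strand), and the most abundant is GRF1 chi (AT4G09000, chr4:5775210-5777481, plus strand), in TAIR10.1 coordinates. Omega is AT1G78300, psi AT5G38480, phi AT1G35160, upsilon AT5G16050, nu AT3G02520, kappa AT5G65430, epsilon AT1G22300 and omicron AT1G34760. Expression of such a family can be read per gene only where reads tell its members apart, and the closest coding sequences here were those of lambda and kappa and of chi and phi, each pair 86.7% identical. Chi and phi held the longest identical run between any pair of the 11 genes with omicron included, 62 bases. It is shown with 20 bases on each side in TAIR10.1, on the plus strand of both genes (chr4:5775484-5775585 and chr1:12867364-12867465), wholly in coding sequence, with the identical run in capitals:
GRF1 chi: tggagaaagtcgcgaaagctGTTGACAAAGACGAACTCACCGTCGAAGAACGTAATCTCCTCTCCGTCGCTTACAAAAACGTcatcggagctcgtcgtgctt
GRF4 phi: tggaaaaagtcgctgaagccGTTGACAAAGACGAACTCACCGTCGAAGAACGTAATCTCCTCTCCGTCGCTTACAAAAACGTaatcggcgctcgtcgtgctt
Of all 50-base windows of a representative transcript, 1.11% in chi and 1.07% in phi also occurred in another of the 11 transcripts, and 0 did in the other genes. The sources used here give no read length, and with shorter reads the shared part would be larger. The windows count exact matches only, so they do not show how reads map where mismatches are allowed.

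The annotation also placed other genes over a member. Exons of chi overlapped those of AT4G09010, on the opposite strand, by 85 bases, and the exons of mu overlapped those of AT2G42580, also on the opposite strand, by 7 bases. A non-coding RNA gene opposite chi, AT4G05685, shared no exon bases with it. The libraries were made with a strand-specific kit, but the sources used here do not say whether counting used strand. AT4G09010 averaged 472 ± 7.1 ppm in sob3-6 and 449 ± 11 ppm in Col-0 (SD, n = 3 each), a log2 difference of 0.07 (SE 0.04, limma adjusted p = 0.283), and AT2G42580 averaged 34.3 ± 2.3 ppm in sob3-6 and 32.5 ± 1.4 ppm in Col-0 (log2 difference 0.08, SE 0.08, limma adjusted p = 0.559). Neither overlapping gene was called in sob3-6 against Col-0. Against SOB3-D and against pif4 pif5 pif7, where chi and mu were also higher in sob3-6, AT2G42580 was called higher in sob3-6, with log2 differences of 0.25 (limma adjusted p = 0.0115) and 0.35 (limma adjusted p = 0.000711). AT4G09010 was called lower in sob3-6 than in pif4 pif5 pif7 (log2 difference -0.15, limma adjusted p = 0.00621) and had a log2 difference of -0.10 from SOB3-D (limma adjusted p = 0.0851). The part of shared reads in the values of chi and mu was not tested.

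Upstream sequence was read for the 250 bases before each annotated gene start in TAIR10.1. The windows of psi (chr5:15409434-15409683, plus strand), lambda (chr5:3286538-3286787, minus strand), mu (chr2:17733983-17734232, minus strand) and omicron (chr1:12745749-12745998, minus strand) are shown, each 5′ to 3′ towards the gene. Lambda and mu had the largest differences between sob3-6 and Col-0, psi held the most motif matches and omicron had another pattern across genotypes. Capitals mark matches to CACGTG (the G-box, a core that PIF proteins bind), CACATG or its reverse complement CATGTG (the PBE-box, which PIF proteins also bind), AATATATT (an AT-rich run), GGCCCA or its reverse complement TGGGCC (site II, common upstream of growth-related genes), and AAACCCTA or TAGGGTTT (the telobox):
GRF3 psi: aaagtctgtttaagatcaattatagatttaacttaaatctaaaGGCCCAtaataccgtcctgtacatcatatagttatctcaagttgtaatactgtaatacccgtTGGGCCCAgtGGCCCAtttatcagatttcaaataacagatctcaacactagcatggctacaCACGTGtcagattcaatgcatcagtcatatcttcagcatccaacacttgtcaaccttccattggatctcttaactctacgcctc
GRF6 lambda: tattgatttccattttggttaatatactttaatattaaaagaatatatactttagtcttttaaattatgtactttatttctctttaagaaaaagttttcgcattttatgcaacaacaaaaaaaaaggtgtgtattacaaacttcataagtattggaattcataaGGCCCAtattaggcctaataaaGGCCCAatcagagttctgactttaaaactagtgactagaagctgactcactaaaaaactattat
GRF9 mu: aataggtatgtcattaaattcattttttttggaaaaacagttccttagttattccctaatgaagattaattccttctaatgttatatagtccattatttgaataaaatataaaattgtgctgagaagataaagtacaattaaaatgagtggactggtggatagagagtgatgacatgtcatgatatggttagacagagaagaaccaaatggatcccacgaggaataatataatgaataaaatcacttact
GRF11 omicron: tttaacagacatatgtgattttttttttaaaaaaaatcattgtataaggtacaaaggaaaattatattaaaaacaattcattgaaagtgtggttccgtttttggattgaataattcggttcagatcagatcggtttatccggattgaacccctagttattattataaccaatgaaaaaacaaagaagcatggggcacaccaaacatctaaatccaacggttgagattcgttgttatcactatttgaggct
The G-box occurred in 2 of the 10 windows, those of psi and upsilon, against 6.49% of the windows of 27443 protein-coding genes. The site II motif occurred in 4 of 10, those of chi, psi, lambda and nu, against 13.7% of all windows, and in psi overlapping matches make 4 hits. The PBE-box was found for omega alone (11.1% of all windows) and the AT-rich run for phi alone (4.19% of all windows), and the telobox was found for none of the 10 (4.49% of all windows). Kappa, mu, epsilon and omicron held none of the 5 motifs in these windows. The A+T content of the 10 windows had a median of 67.6%, against 68.8% over all windows. The windows of upsilon, nu and epsilon run into a neighbouring gene. All 10 genes were higher in sob3-6, so members that rose could not be compared with members that did not. A role of these motifs was not tested.

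The deposited value is a signal in ppm of the mapped reads for each transcript. It is not divided by length, so levels of different genes are compared here per kb of the representative transcript, which is the transcript of a gene that had the most signal over all libraries. In Col-0 the highest level per length was that of chi, 196 ± 5.4 ppm per kb (SD, n = 3). It was followed by psi at 164 ± 2.1, mu at 159 ± 5.4, lambda at 132 ± 3.4 and epsilon at 108 ± 1.4 ppm per kb. Omega with 80.2 ± 1.7, upsilon with 69.6 ± 1.1 and phi with 53.9 ± 1.8 ppm per kb came next, and nu with 44.9 ± 2.8 and kappa with 44.5 ± 1.8 ppm per kb were lowest. Psi and mu, and likewise nu and kappa, lay within the spread of their libraries of each other. Omicron stood below all 10 at 11.01 ± 0.64 ppm per kb.

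**Figure D1:**
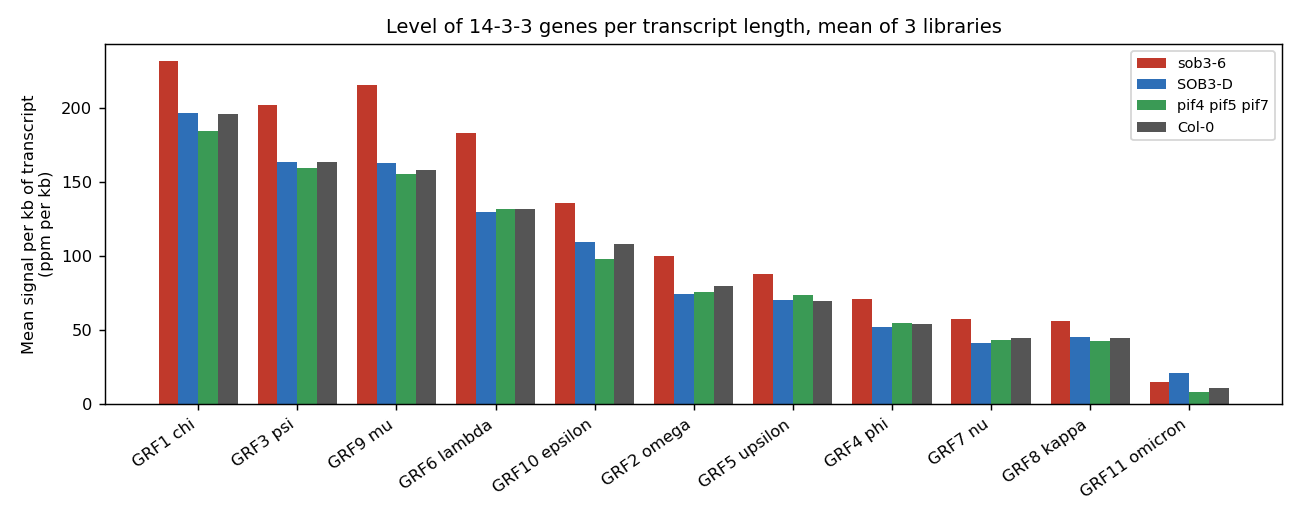
Mean signal per kb of transcript (ppm per kb, vertical axis, from 0) of the 10 14-3-3 genes and GRF11 omicron in the 4 genotypes, sob3-6 leftmost and Col-0 rightmost, ordered by the Col-0 level, each bar the mean of 3 libraries. Chi is highest at 196 ppm per kb in Col-0 and omicron lowest at 11.01 ppm per kb, and the sob3-6 bar is the tallest of its gene for each of the 10 but not for omicron.

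The total that the ppm values refer to was 10179924 to 12567173 reads in sob3-6, 7637822 to 8877404 reads in SOB3-D, 13809707 to 14734732 reads in pif4 pif5 pif7 and 14488308 to 16075498 reads in Col-0. The lowest count of a member was 401 reads, for nu in SOB3-D library 1, whereas a floor of 3 reads corresponds to 0.187 to 0.393 ppm across libraries and covers counting error only. The genotype check held for SOB3, with 227 ± 8.4 ppm in sob3-6, 196 ± 14 ppm in SOB3-D and 0.145 ± 0.16 ppm in Col-0, so that both AHL lines carried the transcript in excess and protein function was not measured. PIF4, PIF5 and PIF7 had 77.4 ± 4.5, 19.1 ± 2.3 and 6.48 ± 0.61 ppm in pif4 pif5 pif7, against 139 ± 6.1, 193 ± 2.5 and 45.2 ± 1.4 ppm in Col-0 (SD, n = 3 each). Leaf markers were abundant in every library, root markers were under 1 ppm in every library for 9 of 10 genes (the other, FRO2, was near that level), and all 4 flower markers were under 1 ppm.

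In sob3-6 the 10 genes were higher than in Col-0 without exception. All 10 passed an adjusted p of 0.05 (limma, Benjamini-Hochberg over all transcripts tested), whereas 9.43% of all genes tested were called higher and 3.95% lower. Among the 2673 genes at least as abundant as the lowest member, 68.6 ppm over all libraries, 13.8% were called higher. The sob3-6 libraries lay wholly above the Col-0 libraries for all 10, as they did for 24.4% of all genes. The log2 change of the 10, on the scale of log2(ppm + 1), had a median of 0.33 and ran from 0.24 to 0.47, while the median of all genes was 0.06 and that of the genes at the members' level was 0.01. Of the latter, 2.28% had a change above the members' median. The differences are thus small in size but large against their standard errors in the fit, which were 0.04 to 0.07 for the 10. The 10 genes were chosen with earlier results of these data known. The shares over all genes, here and below, therefore describe the background and are no test of the set.

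Among the non-epsilon genes the largest change was that of lambda, which binds phototropin 2 and is phosphorylated by the cold-responsive kinase CRPK1. GRF6 lambda had 294, 299.5 and 296 ppm in sob3-6, against 208, 216 and 218 ppm in Col-0. The groups did not overlap, and the log2 change was 0.47 (SE 0.04, limma adjusted p = 1.07e-08). Its closest relative kappa had 82.6, 82.8 and 84.0 ppm in sob3-6, against 63.5, 65.5 and 68.7 ppm in Col-0 (log2 change 0.33, SE 0.05, limma adjusted p = 4.64e-05). Both genes of this pair were higher in every sob3-6 library than in any Col-0 library.

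Chi and phi form the next pair. GRF1 chi, the most abundant member per length, had 289, 307 and 312 ppm in sob3-6, against 252, 252 and 264 ppm in Col-0. Its log2 change of 0.24 (SE 0.04, limma adjusted p = 0.000412) was the smallest of the 10, and its libraries still did not overlap. Phi had 95.1, 96.4 and 99.1 ppm in sob3-6, against 70.9, 73.1 and 75.7 ppm in Col-0, a log2 change of 0.40 (SE 0.06, limma adjusted p = 1.35e-05). Omega, of the same branch, had 154, 164 and 165 ppm in sob3-6, against 126, 131 and 130.2 ppm in Col-0 (log2 change 0.32, SE 0.05, limma adjusted p = 1.99e-05). For omega too the lowest sob3-6 library stood above the highest Col-0 library.

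The genes upsilon, nu and psi also rose. Upsilon, for which mutants with altered flowering time have been described, had 125, 119.8 and 117 ppm in sob3-6, against 93.8, 95.4 and 96.8 ppm in Col-0 (log2 change 0.34, SE 0.05, limma adjusted p = 6.57e-06). GRF7 nu, the gene with the largest standard error, had 86.2, 83.4 and 83.6 ppm in sob3-6, against 70.4, 62.7 and 64.0 ppm in Col-0. Its log2 change of 0.36 had a standard error of 0.07 (limma adjusted p = 0.000381). Psi had 249, 252 and 251 ppm in sob3-6, against 201, 206 and 202 ppm in Col-0 (log2 change 0.31, SE 0.04, limma adjusted p = 1.28e-05), so that the 3 sob3-6 values were closer to each other than to any Col-0 value.

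Both epsilon-branch members were higher as well. GRF9 mu, also described from mutants with altered flowering time, had 275, 277 and 281 ppm in sob3-6, against 198, 211 and 203 ppm in Col-0. Its log2 change of 0.44 (SE 0.04, limma adjusted p = 1.78e-08) was second to that of lambda. GRF10 epsilon, which has been tied to polar auxin transport, had 194, 195 and 201 ppm in sob3-6, against 156, 154 and 158 ppm in Col-0 (log2 change 0.33, SE 0.04, limma adjusted p = 2.34e-06). The rise therefore spanned both branches of the family.

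**Figure D2:**
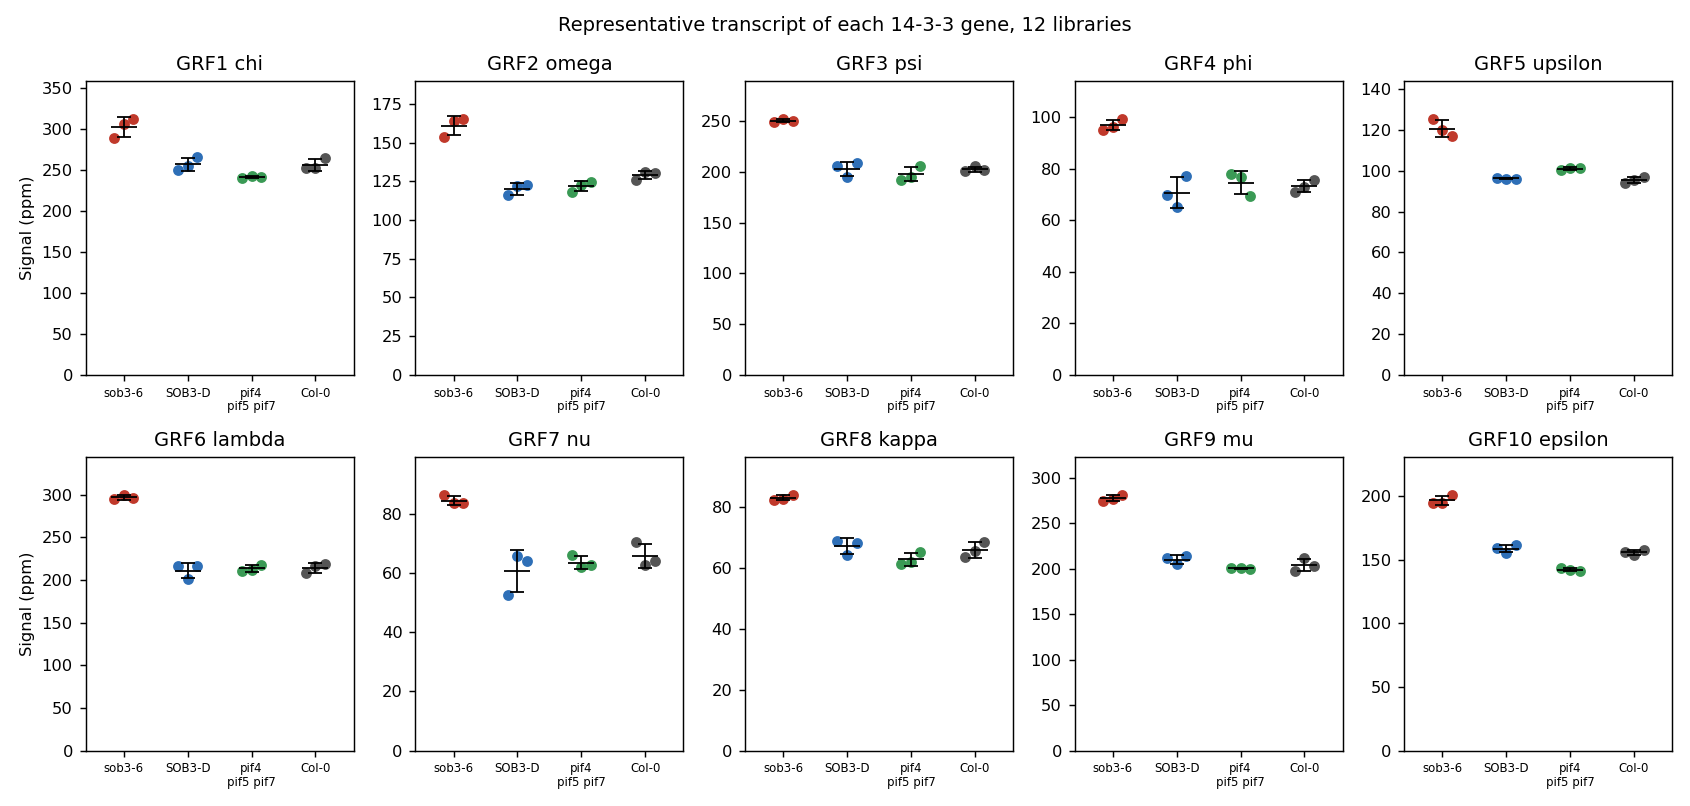
Signal in ppm (vertical axes, from 0) of the representative transcript of each of the 10 14-3-3 genes in the 3 libraries of each genotype (points), with the mean and SD in black. The 3 sob3-6 points lie above all 9 other points in each of the 10 panels, for example at 294 to 299.5 ppm for lambda, against 201 to 218 ppm in the other genotypes.

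Summed over the 10 genes, the signal was 1845, 1877 and 1889 ppm in sob3-6, against 1439, 1467 and 1481 ppm in Col-0, a ratio of means of 1.28. The sum was 1447, 1424 and 1494 ppm in SOB3-D and 1412, 1417 and 1429 ppm in pif4 pif5 pif7, so the sob3-6 libraries stood above all others and the pif4 pif5 pif7 libraries just below those of Col-0. The make-up of the sum shifted little. Lambda contributed 15.9 ± 0.16% in sob3-6 and 14.6 ± 0.17% in Col-0, mu 14.8 ± 0.071% in sob3-6 and 14.0 ± 0.39% in Col-0, and chi 16.2 ± 0.44% in sob3-6 and 17.5 ± 0.33% in Col-0 (SD, n = 3 each). The other 7 genes kept shares that differed between these genotypes by less than 0.5 percentage points. In bulk shoots, more transcript per cell and more of the cells that express a gene cannot be told apart.

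All 22 annotated transcripts of the 10 genes that the libraries list were called higher in sob3-6, with log2 changes of 0.24 to 0.49. The transcripts of a gene share most of their reads, so they are no separate evidence. For lambda, the second transcript stood at 0.915 ± 0.0017 of the representative one in sob3-6 and at 0.905 ± 0.0061 in Col-0 (SD, n = 3 each).

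How the values are scaled moved the level of all genes in sob3-6, and the members with it. As deposited, 1745 genes were called higher and 730 lower in sob3-6. After median-of-ratios scaling, which set the median change of all genes to 0.00, the split was 809 higher and 1253 lower, and after quantile normalization it was 896 higher and 1032 lower. On the whole reads recovered from the values, edgeR called 1018 higher and 1366 lower. The 10 members were called higher under each of these settings, with a median log2 change of 0.27 after median-of-ratios scaling, 0.31 after quantile normalization and 0.27 with edgeR or DESeq2. The summed signal of 4 leaf marker genes was lower in sob3-6, 49956 to 50592 ppm, than in Col-0, 53253 to 55725 ppm, with rubisco activase (RCA) called lower (log2 change -0.32). RCA was the only 1 of the 4 called, and PSBO1 averaged 5156 ± 52 ppm in sob3-6 and 5148 ± 217 ppm in Col-0. Whether tissue make-up differed, and what part it had in the 14-3-3 result, was not tested.

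**Figure D3:**
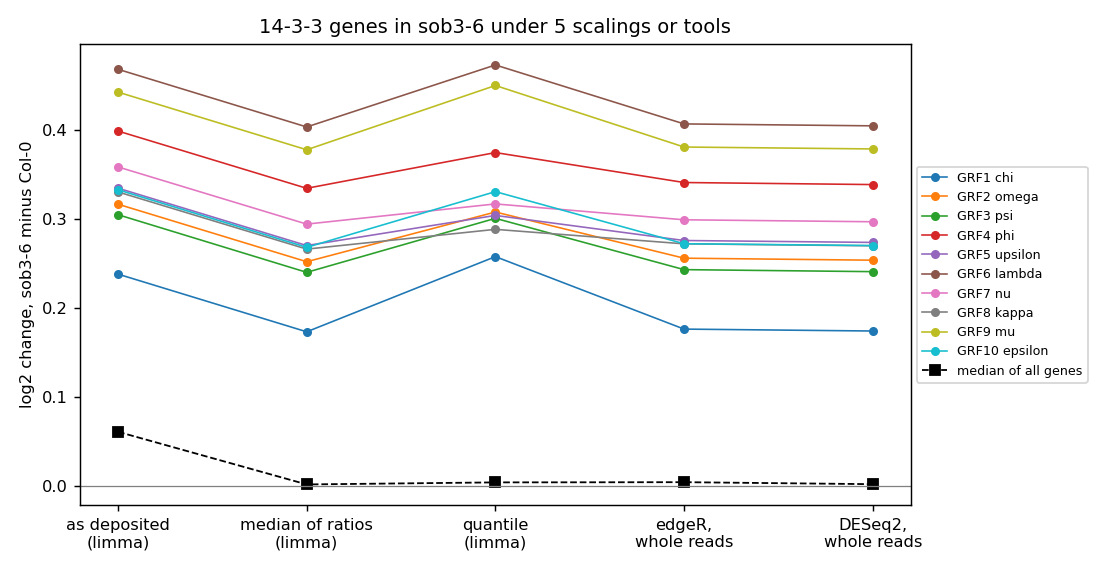
The log2 change of each 14-3-3 gene between sob3-6 and Col-0 (vertical axis) as deposited with limma, after median-of-ratios scaling, after quantile normalization, and with edgeR and DESeq2 on whole reads, with the median of all genes as black squares. All 10 genes stay above 0.17 while the median of all genes lies between 0.00 and 0.06.

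The overexpressor showed no such rise. In SOB3-D, 0 of the 10 genes was called higher and 0 lower by limma against Col-0, where 11.6% of all genes were called higher and 14.9% lower, and edgeR and DESeq2 likewise called 0. Changes ran from -0.12 to 0.04 with a median of 0.00, and the 95% intervals of the 10 together reached from -0.25 to 0.13. The upper bound lies below the smallest point estimate seen in sob3-6, 0.24. At an unadjusted p under 0.05 there was 1 gene, omega, with 116, 122 and 123 ppm in SOB3-D, against 126, 131 and 130.2 ppm in Col-0. Its libraries did not overlap, as in 21% of all genes on the lower side, and its log2 change was -0.10 (SE 0.05, limma adjusted p = 0.122). Nu had the lowest single estimate, -0.12 (SE 0.07, limma adjusted p = 0.204), with 52.5, 65.7 and 63.9 ppm in SOB3-D, against 70.4, 62.7 and 64.0 ppm in Col-0, and that estimate rests mostly on the first SOB3-D library. Lambda had 217, 201 and 216 ppm in SOB3-D and mu 212, 205 and 214 ppm, both overlapping their Col-0 values.

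Set directly against SOB3-D, sob3-6 was again higher for 10 of 10 genes, where 24.8% of all genes were called higher. The changes ran from 0.23 to 0.49 with a median of 0.36, against 0.09 for all genes. Lambda was again the gene with the largest change, 0.49 (SE 0.04, limma adjusted p = 4.96e-10), and chi the one with the smallest, 0.23 (SE 0.04, limma adjusted p = 0.000116). This comparison shares its sob3-6 libraries with the one against Col-0.

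In pif4 pif5 pif7, 0 of the 10 genes was called higher and 0 lower by limma, where 1.5% of all genes were called higher and 4.83% lower, and edgeR and DESeq2 likewise called 0. Changes ran from -0.13 to 0.08 with a median of -0.04, and the median of all genes was also -0.04. The lowest was epsilon, with 143, 142 and 141 ppm in pif4 pif5 pif7, against 156, 154 and 158 ppm in Col-0. These libraries did not overlap, and the log2 change of -0.13 (SE 0.04) had a limma adjusted p of 0.0642 and an unadjusted p of 0.00476, the only one under 0.05 among the 10. A second epsilon transcript, AT1G22300.2, sharing most of its reads, was on the other side of the threshold (log2 change -0.14, SE 0.04, limma adjusted p = 0.0458). The call for epsilon thus depended on the transcript read, and it was also made without the filter on low values (adjusted p = 0.0465). Chi and omega also had non-overlapping lower libraries, as did 18.5% of all genes, called or not, and neither was called. Upsilon had non-overlapping higher ones (8.52% of all genes), 100.2, 101 and 102 ppm in pif4 pif5 pif7, against 93.8, 95.4 and 96.8 ppm in Col-0 (log2 change 0.08, SE 0.05, limma adjusted p = 0.333). The 95% intervals of the 10 reached from -0.22 to 0.18.

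Against pif4 pif5 pif7, sob3-6 was higher for 10 of 10 genes (25.7% of all genes were called higher), with changes of 0.25 to 0.47 and a median of 0.40, against 0.10 for all genes. SOB3-D was higher than pif4 pif5 pif7 for 1 of 10 genes (18.3% of all genes), namely epsilon, with 159, 156 and 161 ppm in SOB3-D, against 143, 142 and 141 ppm in pif4 pif5 pif7 (log2 change 0.16, SE 0.04, limma adjusted p = 0.00523). Ordering the 4 genotype means of each gene put sob3-6 first for all 10, and it differed from the next genotype in each case, as it did for 5.59% of all genes. Below it, no pair of neighbouring genotypes was called different for any of the 10.

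**Figure D4:**
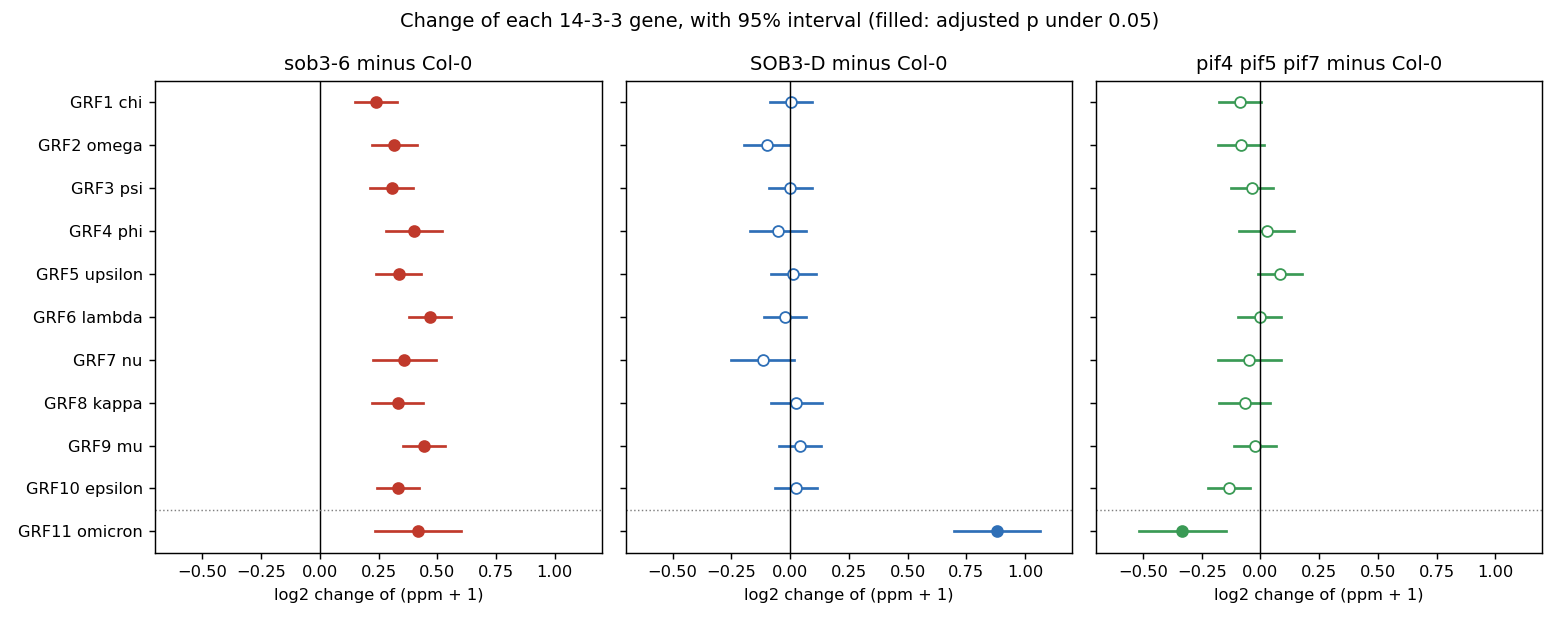
The log2 change of (ppm + 1) with its 95% interval (horizontal axis) for each 14-3-3 gene and for GRF11 omicron, below the dotted line, for the contrasts of the 3 mutant lines with Col-0, filled where the limma adjusted p is under 0.05. The 10 genes are filled in sob3-6 alone, between 0.24 and 0.47, while omicron is filled in all 3 panels at 0.42, 0.88 and -0.33.

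**Figure D5:**
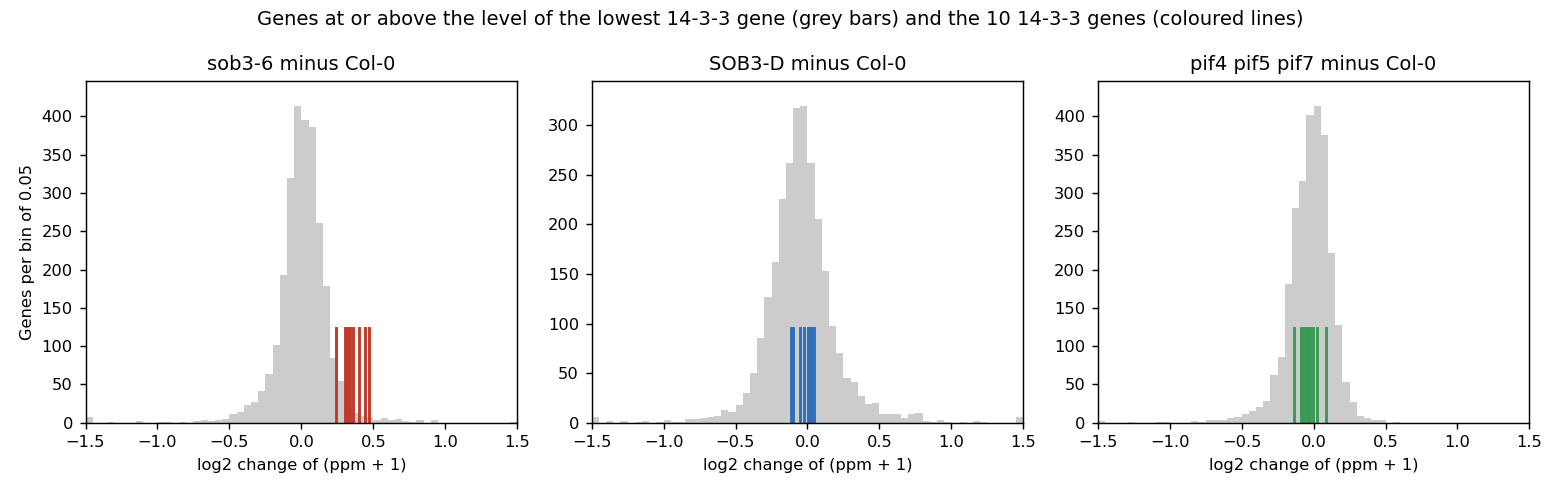
Number of genes (vertical axis, bins of 0.05) by log2 change of (ppm + 1) for the 2673 genes at or above the level of the lowest 14-3-3 gene (grey bars, values beyond 1.5 in the outermost bins), with a coloured line for each of the 10 14-3-3 genes, for the contrasts of the 3 mutant lines with Col-0. The lines stand in the upper tail in sob3-6, between 0.24 and 0.47, and around the middle of the bars in the other comparisons.

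Of the further 14-3-3 genes, omicron had enough signal to be tested. GRF11 omicron, an epsilon-branch gene known from iron responses of roots, had 15.9, 18.2 and 18.3 ppm in sob3-6, 22.5, 25.7 and 25.01 ppm in SOB3-D and 9.16, 9.91 and 10.9 ppm in pif4 pif5 pif7, against 11.9, 13.2 and 13.3 ppm in Col-0. No pair of genotypes overlapped, and all 3 neighbouring pairs in the order SOB3-D, sob3-6, Col-0 and pif4 pif5 pif7 were called different. Its log2 change was 0.88 in SOB3-D (SE 0.09, limma adjusted p = 7.82e-09), 0.42 in sob3-6 (SE 0.09, limma adjusted p = 0.00194) and -0.33 in pif4 pif5 pif7 (SE 0.09, limma adjusted p = 0.0216). The last call was lost with DESeq2 (adjusted p = 0.130), after quantile normalization (adjusted p = 0.0552) and when Col-0 library 2 or 3 or pif4 pif5 pif7 library 1 or 2 was left out (limma adjusted p = 0.0595 to 0.130). In sob3-6 minus SOB3-D the omicron change was -0.46 (SE 0.09, limma adjusted p = 0.000167), of the opposite sign to that of all 10 members. GRF12 iota was at 0 in all 12 libraries, which allows up to 0.187 to 0.393 ppm, and GRF13 pi and AT1G22290 had no library above 0.125 ppm.

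The loci whose level followed lambda, the member with the widest range of genotype means, most closely over the 12 libraries were psi (Pearson r = 0.984), AT4G08093 (r = 0.984) and mu (r = 0.981). AT4G08093, an annotated transcribed pseudogene, averaged 7.08 ppm in sob3-6, 0.0765 ppm in SOB3-D, 0 ppm in pif4 pif5 pif7 and 0.0460 ppm in Col-0. The r of the other members with lambda ran from 0.844 for nu to 0.961 for kappa. These values describe 12 libraries that fall into genotypes, of which sob3-6 stands apart, and carry no test.

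Genes for proteins that 14-3-3 dimers bind were read from the same fit. Over all genes, 9.43% were called higher and 3.95% lower in sob3-6, and 11.6% and 14.9% in SOB3-D. In pif4 pif5 pif7 these shares were 1.5% and 4.83%. The counts of called genes in the lists below are small and were not tested against these shares. Of 11 plasma membrane H+-ATPase genes, which power proton export and cell expansion, 9 passed the filter, and AHA5 alone rose in sob3-6, with 18.8 ± 0.52 ppm in sob3-6 and 14.0 ± 1.5 ppm in Col-0 (log2 change 0.41, SE 0.09, limma adjusted p = 0.00184). AHA2, a major gene of this group, fell to 138 ± 4.8 ppm in pif4 pif5 pif7, against 175 ± 11 ppm in Col-0 (log2 change -0.34, limma adjusted p = 0.000259), the 1 call there. In SOB3-D the 1 call was AHA11, with 133 ± 7.3 ppm in SOB3-D and 119.6 ± 5.3 ppm in Col-0 (log2 change 0.15, limma adjusted p = 0.0251). It was lost when Col-0 library 1 or 2 or SOB3-D library 2 or 3 was left out. It was also lost with only the genotypes compared in the fit (adjusted p up to 0.104 over all settings).

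The PP2C.D phosphatases remove the phosphate that 14-3-3 proteins bind on the H+-ATPase. All 9 passed the filter. In sob3-6 3 were called higher and 0 lower, against 9.43% and 3.95% of all genes. PP2C.D4 had 25.7 ± 0.92 ppm in sob3-6 and 16.9 ± 1.3 ppm in Col-0 (log2 change 0.58, limma adjusted p = 1.44e-05), and PP2C.D5 had 84.7 ± 1.9 ppm in sob3-6 and 70.5 ± 2.3 ppm in Col-0 (log2 change 0.26, limma adjusted p = 0.000629). The call of PP2C.D9 (log2 change 0.49, limma adjusted p = 0.0215) was lost in 4 of the 6 fits that left out a Col-0 or sob3-6 library. It was also lost after quantile normalization, without the filter and with DESeq2 (adjusted p up to 0.108 over all settings). In SOB3-D 1 was called higher, PP2C.D5, and 1 lower, PP2C.D1, with 32.7 ± 3.2 ppm in SOB3-D and 77.2 ± 5.5 ppm in Col-0 (log2 change -1.22, limma adjusted p = 4.72e-14). PP2C.D1 was lower in pif4 pif5 pif7 too, at 45.8 ± 2.3 ppm (log2 change -0.74, limma adjusted p = 8.23e-09), as was PP2C.D7 (log2 change -0.58, limma adjusted p = 0.00369), with 0 higher.

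Brassinosteroid signalling genes whose proteins meet 14-3-3 proteins numbered 7, of which 6 passed the filter. In sob3-6 1 was called higher, the receptor inhibitor BKI1 (log2 change 0.30, limma adjusted p = 0.0226). That call was lost after median-of-ratios scaling, after quantile normalization and with DESeq2 (adjusted p up to 0.185 over all settings). It held in 2 of the 6 fits that left out a library. In SOB3-D the kinase BIN2 was higher, with 172 ± 8.7 ppm in SOB3-D and 136 ± 3.2 ppm in Col-0 (log2 change 0.34, limma adjusted p = 1.94e-05), and the receptor BRI1 lower, with 152 ± 4.3 ppm in SOB3-D and 181 ± 4.9 ppm in Col-0 (log2 change -0.25, limma adjusted p = 9.00e-05). In pif4 pif5 pif7 3 were lower, BRI1 (log2 change -0.27, limma adjusted p = 0.00031), BIN2 (-0.21, limma adjusted p = 0.0148) and BES1 (-0.19, limma adjusted p = 0.0291). The calls of BIN2 and BES1 there were lost after median-of-ratios and quantile scaling, without the filter and with DESeq2 (adjusted p up to 0.107 for BIN2 and 0.203 for BES1). The BES1 call was also lost with edgeR. Of the 6 fits that left out a library, BIN2 was called in 3 and BES1 in 2.

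Genes of carbon and nitrogen metabolism whose proteins meet 14-3-3 proteins numbered 11, of which 10 passed the filter. Besides metabolic enzymes the list held KIN10, KIN11, CPK3 and ATL31, and ATL31 was the gene that did not pass. In sob3-6 0 were higher and 4 lower, namely F2KP (log2 change -0.19, limma adjusted p = 0.0122), the nitrate reductase NIA1 (-0.96, limma adjusted p = 0.0257) and the sucrose-phosphate synthases SPS4F (-0.57, limma adjusted p = 0.0325) and SPS1F (-0.14, limma adjusted p = 0.0475). Each of these 4 calls was lost when some single Col-0 or sob3-6 library was left out, with adjusted p up to 0.157. In SOB3-D 3 were lower, SPS4F (log2 change -0.69, limma adjusted p = 0.00702), NIA2 (-0.58, limma adjusted p = 0.00986) and F2KP (-0.14, limma adjusted p = 0.0469), of which F2KP was lost under most other settings (adjusted p up to 0.216). In pif4 pif5 pif7 0 were called by limma in either direction.

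Among 9 genes of phototropin and phytochrome signalling, all of which passed, sob3-6 had 2 higher, RPT2 (log2 change 0.18, limma adjusted p = 0.00645) and PHOT2 (0.16, limma adjusted p = 0.00817), and 1 lower, NPH3 (-0.23, limma adjusted p = 0.00716). The calls of RPT2 and PHOT2 were lost after median-of-ratios scaling, with edgeR and with DESeq2 (adjusted p up to 0.131 for RPT2 and 0.163 for PHOT2 over all settings). That of NPH3 was lost without sob3-6 library 2 (adjusted p = 0.0522). PHOT2 was called in 4 of the 6 fits that left out a library. In SOB3-D 4 were higher and 0 lower, led by RPT2 (0.18, limma adjusted p = 0.00237), PIF7 (0.25, limma adjusted p = 0.00655) and PHOT2 (0.14, limma adjusted p = 0.0127). The call of PHOT2 was lost without Col-0 library 3 (adjusted p = 0.0713). In pif4 pif5 pif7 3 were lower, the mutated PIF7, NPH3 (-0.27, limma adjusted p = 0.00472) and PHOT1 (-0.19, limma adjusted p = 0.00995). The PHOT1 call was lost after median-of-ratios scaling and with DESeq2 (adjusted p up to 0.0949 over all settings). PHOT1 held in 4 of the 6 fits that left out a library.

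Of 8 genes of cold, salt and abscisic acid signalling 5 passed the filter. CRPK1, whose product phosphorylates lambda in the cold, was the 1 called in sob3-6, with 10.2 ± 0.38 ppm in sob3-6 and 7.55 ± 0.59 ppm in Col-0 (log2 change 0.39, limma adjusted p = 0.0103), a call lost with DESeq2 and without Col-0 library 1 (adjusted p up to 0.120). The abscisic acid factor ABF3 was higher in SOB3-D, with 98.8 ± 4.2 ppm in SOB3-D and 59.8 ± 4.0 ppm in Col-0 (log2 change 0.72, limma adjusted p = 1.23e-10), where CRPK1 was the other call (0.28, limma adjusted p = 0.0460). The CRPK1 call there was lost after quantile normalization, with only the genotypes compared in the fit and with DESeq2. It was also lost in 5 of the 6 fits that left out a library (adjusted p up to 0.188 over all settings). ABF3 was also higher in pif4 pif5 pif7 (0.27, limma adjusted p = 0.00403), not without pif4 pif5 pif7 library 1 (adjusted p = 0.0593). Of 2 ion channel genes, the inward potassium channel KAT1 rose in sob3-6 (0.26, limma adjusted p = 0.0133). That call was lost after median-of-ratios scaling, with DESeq2, and without Col-0 library 2 or sob3-6 library 3 (adjusted p up to 0.145). KAT1 fell in pif4 pif5 pif7, with 29.6 ± 1.5 ppm in pif4 pif5 pif7 and 43.1 ± 3.5 ppm in Col-0 (log2 change -0.53, limma adjusted p = 8.00e-06). Of 4 florigen complex genes 1 passed, and it was not called in any comparison with Col-0.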

How the data were processed

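Shoot mRNA of 12 libraries was sequenced after strand-specific library preparation, per the labels' protocols. Reads were converted with bcl2fastq and aligned with Bowtie 1.2.1 to TAIR10, per the submitters' processing notes. The authors deposited, for each transcript, a signal in ppm of the mapped tags, per the labels. The values of a library add up to 1599902 to 1626178 ppm, and reads that fit several transcripts of a gene appear to be counted for each. With 1 transcript per gene the sums were 1063973 to 1068838 ppm, still above the total that ppm refers to. Some reads thus appear to be counted for more than 1 gene, and which genes share them was not tested. All values were whole multiples of 1 read within 0.01 reads, so whole reads could be recovered, and the recovered totals ran from 7637822 to 16075498 reads. The use of strand in counting and the read length are not given in the sources used here.

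From the deposited values, 25710 of 32950 transcripts were kept, those reaching 1 ppm in 3 or more of the 12 libraries. They were tested with limma 3.58.1 (trend and robust settings, R 4.3.3) on log2(ppm + 1), 1 coefficient per genotype and all 12 libraries in 1 fit. The value of a gene is that of its transcript with the highest mean. P-values were adjusted by Benjamini-Hochberg over all kept transcripts within a comparison, with a threshold of 0.05 for a call. A log2 change on this scale understates the change of low genes. Values are mean ± SD of 3 libraries unless given per library. The test was run on simulated data with known changes first. Alternatives were edgeR 4.0.16 and DESeq2 1.42.0 on the recovered whole reads, other scalings, filters and fits, and leaving out each library. Libraries of 1 genotype correlated at 0.992 or more and differed by more than sampling noise. Gene models and sequences came from the RefSeq TAIR10.1 annotation, where 24747 of the 25089 loci were found, and its transcript lengths may differ from those the authors used. Motif and sequence counts used Biopython 1.88. Named genes are the members, the further 14-3-3 genes, the mutated genes, up to 3 called genes per partner list and comparison by lowest p (SPS1F was added after its value was seen, to name a whole list), and the 3 loci most like the member with the widest range. The members and lists were chosen with earlier results of these data known.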

Additional observations from a re-analysis of the deposited data

How the results depend on the processing

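The 10 calls in sob3-6 minus Col-0, sob3-6 minus SOB3-D and sob3-6 minus pif4 pif5 pif7 were kept under all 10 other settings and in all 6 fits per comparison that left out a library, so the count stayed at 10. No change of a member turned its sign past the threshold. In pif4 pif5 pif7 minus Col-0, the count of members called lower was 1 without the filter and 1 with the replicate number as a replicate block, in both cases epsilon at a log2 change of -0.13 (limma adjusted p = 0.0465 and 0.0335). In SOB3-D minus pif4 pif5 pif7, 2 members were called higher after quantile normalization, chi being the second with a log2 change of 0.12 (limma adjusted p = 0.0477). The replicate block changed no other call of a member. Same-numbered libraries had correlations of their deviations from -0.045 to 0.130, so the numbers were not taken as pairs.

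Partner genes were less stable. Those called higher in sob3-6 were 3 with DESeq2 and 5 after median-of-ratios scaling, against 9 as reported, and those called lower were 1 to 3 when a Col-0 or sob3-6 library was left out, against 5. Partner genes called higher in pif4 pif5 pif7 were 2 with only the genotypes compared in the fit, 2 with DESeq2 and 2 with the replicate block, and 0 without pif4 pif5 pif7 library 1 (1 in all other fits with a library left out), against 1. The cause of these shifts was not tested. A fit with a library left out assumes that the remaining 2 vary like the other groups.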
